A study of Mus musculus with 6 samples.

Results

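Defb1 and Camp encode a pair of antimicrobial peptides, small cationic proteins of innate immunity, and both were measured in pancreatic islets of mice on a high-fat or a normal diet. Defb1 encodes beta-defensin 1, and Camp encodes the mouse cathelicidin, whose released peptide is called CRAMP. These 2 genes are members of a table of 54 gene rows with deposited expression values, and each was found in it by its Ensembl identifier. They were chosen by name from those rows, with their FPKM and deposited diet differences known, and all 54 rows carry a deposited p-value for the diet comparison of at most 0.00999. The diet difference of either gene is therefore given as a description, without a test.

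The libraries came from islets of C57BL/6 mice. There were 3 libraries from mice on high-fat food and 3 from mice on normal food, with replicates numbered in the order of their records. The sample labels give 22 weeks of diet for every library, while the series' design text gives 27 weeks. The labels state neither sex nor age, nor whether a library holds islets of one animal or of a pool, so the spread between libraries may be partly technical. Values are FPKM, that is, fragments scaled by transcript length and by library size, so levels may be compared between genes. Library totals are not given, and the read depth behind each value is unknown.

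Beta-defensins are short secreted peptides held in a compact fold by paired cysteines, and they disrupt microbial membranes. Beta-defensin 1 is made by many epithelia, in mouse among others by kidney and airway, and is commonly described as constitutive rather than induced. Cathelicidins are stored as inactive precursors in the granules of neutrophils and are also made by epithelia; a protease releases the positively charged end of the precursor. In mice, beta cells of the islet have also been described as a source of CRAMP.

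The coding sequences show what sets these precursors apart, and they are printed for that reason from the GENCODE M21 transcripts (GRCm38), 5′ to 3′ along the coding strand. The Defb1 line is the whole coding sequence with cysteine codons in capitals, joined from exon 1 (chr8:21776652-21776712, plus strand) and exon 2 (chr8:21794428-21794576). The Camp line is the coding part of exon 4, the last exon (chr9:109847435-109847581, minus strand), with lysine and arginine codons in capitals.
Defb1: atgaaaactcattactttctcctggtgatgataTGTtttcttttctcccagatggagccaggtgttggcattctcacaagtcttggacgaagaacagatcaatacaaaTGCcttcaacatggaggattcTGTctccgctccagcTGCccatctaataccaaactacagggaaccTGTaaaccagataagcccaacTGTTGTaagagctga
Camp: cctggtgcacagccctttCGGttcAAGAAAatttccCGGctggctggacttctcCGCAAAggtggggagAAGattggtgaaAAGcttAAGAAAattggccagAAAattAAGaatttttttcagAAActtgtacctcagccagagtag

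Defb1 has 69 codons before its stop, 7 of them for cysteine. The last coding exon holds 6 of these, at codons 37, 44, 49, 59, 66 and 67 counted from the start codon, so the last 2 are adjacent as in other beta-defensins. Exon 2 also carries the net positive count of the precursor: 8 lysine or arginine codons against 2 for aspartate or glutamate. These counts cover all 48 codons of that exon before the stop, and the secreted peptide was not counted on its own. Camp has 172 codons, of which the 48 in the last exon include 13 for lysine or arginine, 3 for aspartate or glutamate and none for cysteine. The 124 codons before it hold 4 cysteine codons and a net count of -6 (13 basic against 19 acidic). Both precursors thus place their positive charge in the last coding exon, with a net count of 6 in Defb1 and 10 in Camp.

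Defb1 (ENSMUSG00000044748) occupies chr8:21776599-21795185 on the plus strand and has 2 exons and a transcript of 872 bases. It lies in a cluster of defensin genes: the nearest protein-coding neighbours are Defa24, 41127 bases below it in coordinates, and Defb50, 28353 bases above it. The annotation has 46 protein-coding Defa and Defb genes on chromosome 8, of which Defb1 is the 1 among the 54 rows. Camp (ENSMUSG00000038357) occupies chr9:109847379-109849617 on the minus strand, with 4 exons and a transcript of 758 bases, between Nme6 and Cdc25a. Neither gene shares exon bases with another annotated gene (0 for each), so an unknown strand setting does not mix their reads with those of an overlapping gene. Both strands of the transcripts of all other genes were searched for stretches identical letter for letter. The longest for Defb1 is 20 bases, and the longest with another defensin is 15 bases, with Defb2. For Camp the longest is 23 bases. The stretches of 20 and 23 bases match the reverse complement of the other transcript, and that with Defb2 lies on the same strand.

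Defb1 was higher in high-fat islets in every library. The high-fat libraries gave 37.0, 29.6 and 40.9 FPKM, against 10.9, 12.5 and 15.2 FPKM in the control libraries. The diets did not overlap, and the lowest high-fat library was at 1.95 times the highest control library. The means were 35.8 ± 5.75 FPKM on the high-fat diet and 12.9 ± 2.15 FPKM on the control diet (SD, n = 3 each), a ratio of 2.78 and a log2 ratio of 1.48. The ratio was 1.61, 1.76 and 1.46 after each library was divided by its median, upper quartile or sum over the 54 rows, and the gap between the nearest libraries was then 1.24, 1.25 and 1.16. Non-overlap in this direction held for 33 of the 54 rows (61.1%), and all rows have a low deposited p-value for this contrast, so nothing follows from it for Defb1. In bulk RNA, a change in the number of Defb1-expressing cells and a change in RNA per cell cannot be told apart.

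Camp was close to the bottom of the measured range and lower in high-fat islets. The high-fat libraries list it at 0, 0 and 0.0601 FPKM, against 0.372, 0.111 and 0.241 FPKM in the control libraries. The diets did not overlap here either, and the lowest control library was at 1.85 times the 1 high-fat library with a value. Non-overlap in this lower direction held for 18 of the 54 rows (33.3%), under the same limit. A value of 0 in a table of FPKM can mean that few or no reads were present or that the estimate failed, so each library is given by its value, and the ratios of means that follow for Camp take these zeros as listed.

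**Figure D1:**
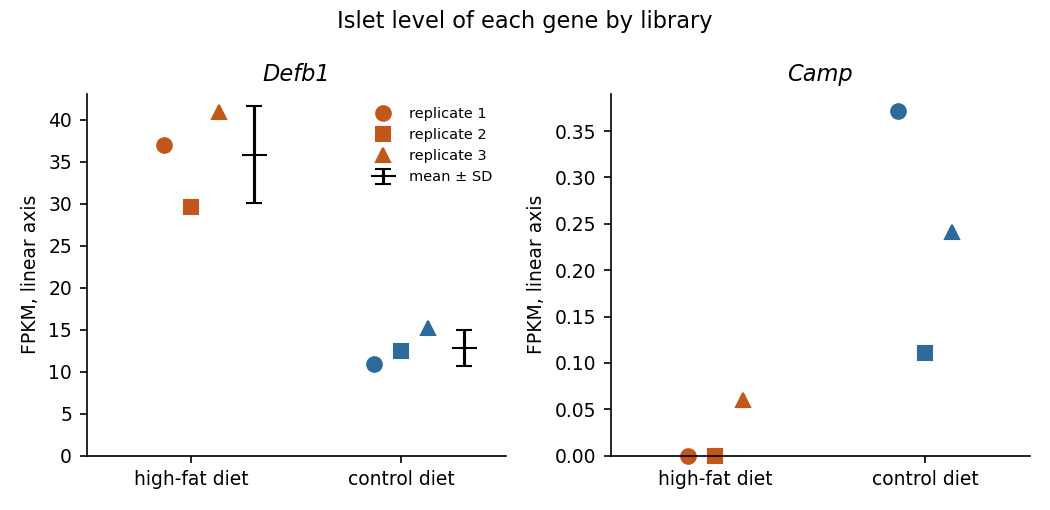
FPKM of Defb1 and Camp (linear vertical axes of different range) in each of 3 high-fat and 3 control libraries; marker shapes are replicate numbers, and black bars, drawn for Defb1, are mean ± SD. Defb1 lies between 29.6 and 40.9 FPKM on the high-fat diet and between 10.9 and 15.2 FPKM on the control diet, while Camp is listed at 0 in 2 high-fat libraries and reaches 0.372 FPKM in a control library.

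These genes sit at opposite ends of the level scale. By mean FPKM over the 6 libraries Defb1 ranked 4 of 54 rows from the top, at 24.3 FPKM, and Camp ranked 49, at 0.131 FPKM. Within single libraries Defb1 ranked 3, 2 and 3 in the high-fat group and 5, 3 and 3 in the control group. In the order of levels Defb1 stood just below Gabarapl1, a gene of autophagosome formation, with a mean of 25.4 FPKM. Their difference is smaller than the SD over the 6 libraries, 13.2 FPKM for Defb1 and 8.84 FPKM for Gabarapl1, which includes the diet difference. By diet their order changed. The mean of Defb1 was 35.8 FPKM against 32.3 FPKM for Gabarapl1 on the high-fat diet, and 12.9 against 18.4 FPKM on the control diet. Their libraries overlapped in each diet. The next row below Defb1 over the 6 libraries was Fkbp5, a steroid-receptor co-chaperone gene, at 9.76 FPKM. Camp stood between Gabrr2, a GABA receptor subunit gene, at 0.145 FPKM and Clec11a, a secreted lectin gene, at 0.0929 FPKM. These means pool both diets. Gabrr2 lay above Camp in the high-fat libraries, at 0.208 to 0.319 FPKM against 0 to 0.0601 FPKM. In the control libraries it lay below Camp, at 0 to 0.0332 FPKM against 0.111 to 0.372 FPKM. The values of Clec11a overlapped those of Camp in each diet.

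Multiplied by the GENCODE M21 transcript length, the Defb1 values correspond to 32.3, 25.8 and 35.6 fragments of every 1000000 in the high-fat libraries. In the control libraries they correspond to 9.50, 10.9 and 13.2. The length behind the deposited FPKM is not given, so these conversions and those for Camp are approximate. The Camp values above 0 correspond to 0.0455 fragments of every 1000000 in high-fat replicate 3 and to 0.282, 0.0841 and 0.183 in the control libraries. Every Camp value thus stood for less than 1 fragment in 1000000.

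The spread of Defb1 between replicates depended on the scaling. As deposited, the coefficient of variation of Defb1 was 16.1% on the high-fat diet and 16.7% on the control diet, against medians over the 54 rows of 16.1% and 33.5%. It ranked 28 from the lowest of 54 on the high-fat diet and 9 on the control diet. Divided by the library median it was 3.61% on the high-fat diet and 40.8% on the control diet, so the controls were then the more scattered group. For Camp the control libraries, as deposited, had a coefficient of variation of 54.1%, rank 45.

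The absolute difference of Defb1, 23.0 FPKM between the diet means, was the second largest of the 54 rows. Its ratio ranked 8 among the 36 rows that were higher on the high-fat diet, whose median log2 ratio was 1.04. The absolute difference of Camp ranked 47. In the authors' deposited table Camp has a log2 fold change of -3.59, taken as a ratio of means without a pseudocount. By its size this ranked 3 among the 18 rows lower on the high-fat diet, whose median was -1.60. The deposited p-values, from a test that is not stated, are 0.0072 for Defb1, at place 41 of 54 by p, and 0.00999 for Camp. That of Camp is the highest of all rows, and genes outside these rows were not analysed here. Every row has such a low p-value for this contrast, so these values are no independent support.

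**Figure D2:**
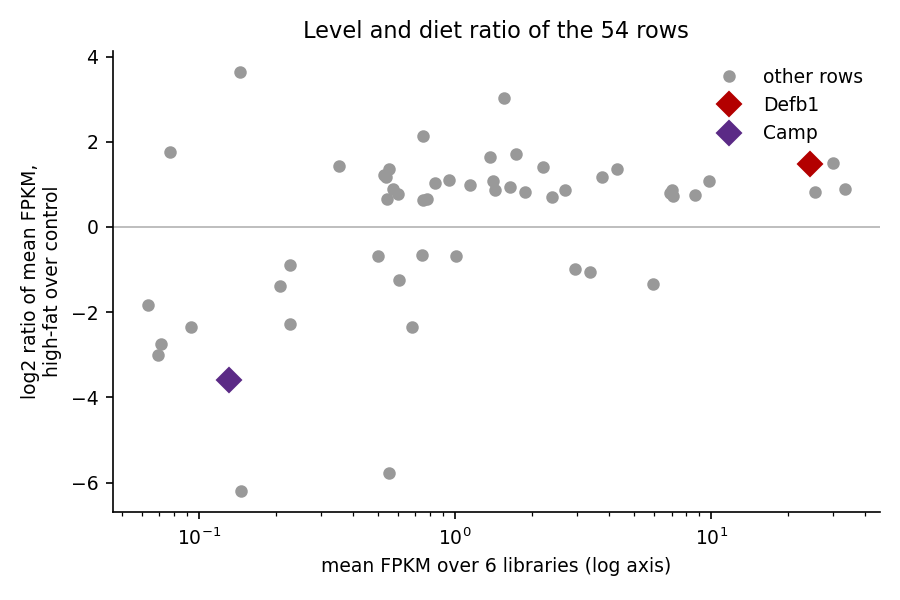
Log2 ratio of mean FPKM, high-fat over control (vertical axis), against mean FPKM over 6 libraries (horizontal log axis), with 1 point for each of the 54 rows. Defb1 sits toward the right at 24.3 FPKM and 1.48, and Camp at the lower left at 0.131 FPKM and -3.59.

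The size of the Camp ratio rests on very few values. With a pseudocount of 0.1 FPKM the log2 difference was -1.47, and with a pseudocount of 1 FPKM it was -0.28. Without high-fat replicate 3, the 1 high-fat library above 0, the ratio has no finite value. Without high-fat replicate 1, and likewise without high-fat replicate 2, the log2 ratio was -3.01. The ratio of means, 12.05 as control over high-fat, was 8.03 in both cases and 8.79 without control replicate 1. The direction stayed negative in every alternative that gave a value.

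Defb1 depended little on single libraries but more on how libraries were scaled. Leaving out each library in turn gave log2 ratios between 1.37 and 1.61. The median row of the table itself differed between libraries: high-fat libraries had medians of 1.27, 0.982 and 1.304 FPKM, against 1.09, 0.548 and 0.642 FPKM in the control libraries. The median log2 ratio of all 54 rows was 0.81, and the log2 ratio of Defb1 stood 0.67 above it. After each library was divided by its median, upper quartile or sum over the 54 rows, the log2 ratio of Defb1 was 0.68, 0.82 and 0.54. It then stood 0.56, 0.57 and 0.60 above the median row. That distance changes little by construction, since dividing a library by a single number scales all its rows alike, so it adds no support. Because all these rows have a low deposited p-value for the diet difference, such scalings can remove part of a difference, and what share of the Defb1 ratio belongs to library scaling was not tested.

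The diets still did not overlap for Defb1 under these scalings. Divided by the library median, Defb1 was 29.2, 30.1 and 31.3 times that median in the high-fat libraries, against 9.96, 22.9 and 23.6 times in the control libraries. The high-fat libraries came closer together, and control replicate 1 now stood apart below the other controls. The number of rows without overlap moved to 21 higher and 18 lower by the median and the upper quartile, and to 10 higher and 20 lower by the sum, against 33 higher and 18 lower as deposited. Defb1 remained among the higher and Camp among the lower rows in each case. The log2 ratio of Camp was -4.32, -4.21 and -4.55 under the median, upper quartile and sum.

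**Figure D3:**
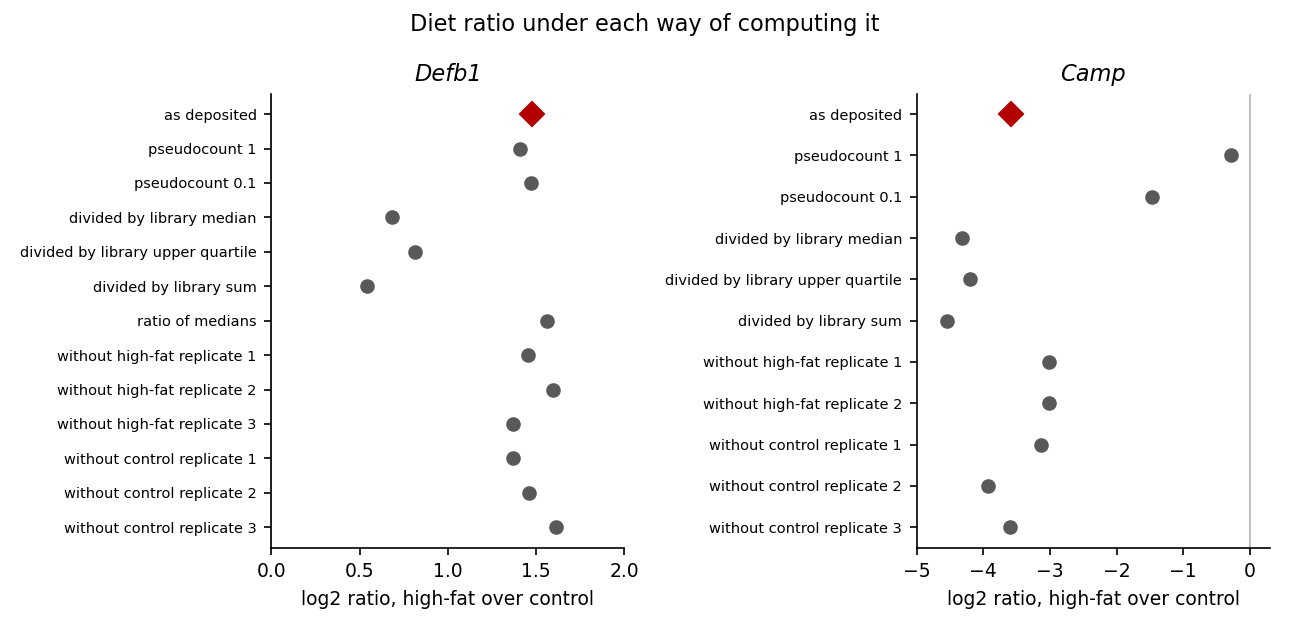
Log2 ratio of high-fat over control (horizontal axes of different range) for Defb1 and Camp as deposited (red diamond) and under each alternative (grey points); no point is drawn where Camp has no finite ratio. Defb1 stays between 0.54 and 1.61, and Camp between -4.55 and -0.28.

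A ratio of both genes within 1 library is free of library scaling. Camp amounted to 0, 0 and 0.147 FPKM per 100 FPKM of Defb1 in the high-fat libraries, against 3.41, 0.886 and 1.59 in the control libraries. The lowest control value was above the highest high-fat value. This had to follow, since Defb1 was higher and Camp lower in every high-fat library, so it adds no support for either difference. In control replicate 1 this ratio was highest because that library had both the lowest Defb1 and the highest Camp of the controls.

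The likeness of other rows to each gene was measured as the root-mean-square difference of profiles over the 6 libraries, each profile being FPKM divided by the gene's own mean. Closest to Defb1 were Mum1l1 at 0.129, Me3, a mitochondrial malic enzyme gene, at 0.140, and Arntl, the circadian transcription factor gene also known as Bmal1, at 0.158. The median was 0.258 over the 35 other rows that were higher on the high-fat diet and 0.296 over all 53 other rows. Relative to its mean, Defb1 stood at 1.52, 1.21 and 1.68 in the high-fat libraries and at 0.448, 0.514 and 0.623 in the control libraries. Mum1l1 and Arntl shared the order of the high-fat libraries, with replicate 2 lowest and replicate 3 highest. The library medians over the 54 rows had this order too, at 1.27, 0.982 and 1.304 FPKM. As multiples of the library median, Defb1 stood at 29.2, 30.1 and 31.3, with replicate 1 lowest. Likeness was not recomputed on scaled profiles. In the controls Defb1 differed from all 3 rows: its lowest library was replicate 1, which was the highest control of Mum1l1, Me3 and Arntl. Control replicate 1 also had the highest control library median, 1.09 FPKM.

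Closest to Camp were Upk1b, a uroplakin gene of urothelium, at 0.158, Gnal, a stimulatory G protein subunit gene, at 0.324, and Cer1, a secreted BMP and Nodal antagonist gene, at 0.349. The median was 0.540 over the 17 other rows that were lower on the high-fat diet and 1.23 over all other rows, most of which were higher on it. For Upk1b the high-fat libraries list 0, 0 and 0.0464 FPKM, against 0.182, 0.0709 and 0.117 FPKM in the control libraries. The order of libraries was that of Camp, with control replicate 1 highest and control replicate 2 the lowest control. This was not particular to Upk1b: Gnal and Cer1 had the same order of control libraries. So did the control library medians over the 54 rows, at 1.09, 0.548 and 0.642 FPKM. In all, 5 of the 54 rows, Camp included, were listed at 0 in at least 2 high-fat libraries, so this pattern is shared by other rows. Igfbp6 was among them with a control mean of 1.09 FPKM, so the pattern was not limited to rows as low as Camp. All rows share the same libraries and have a low deposited p-value for the same contrast, and no p is given for likeness.

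**Figure D4:**
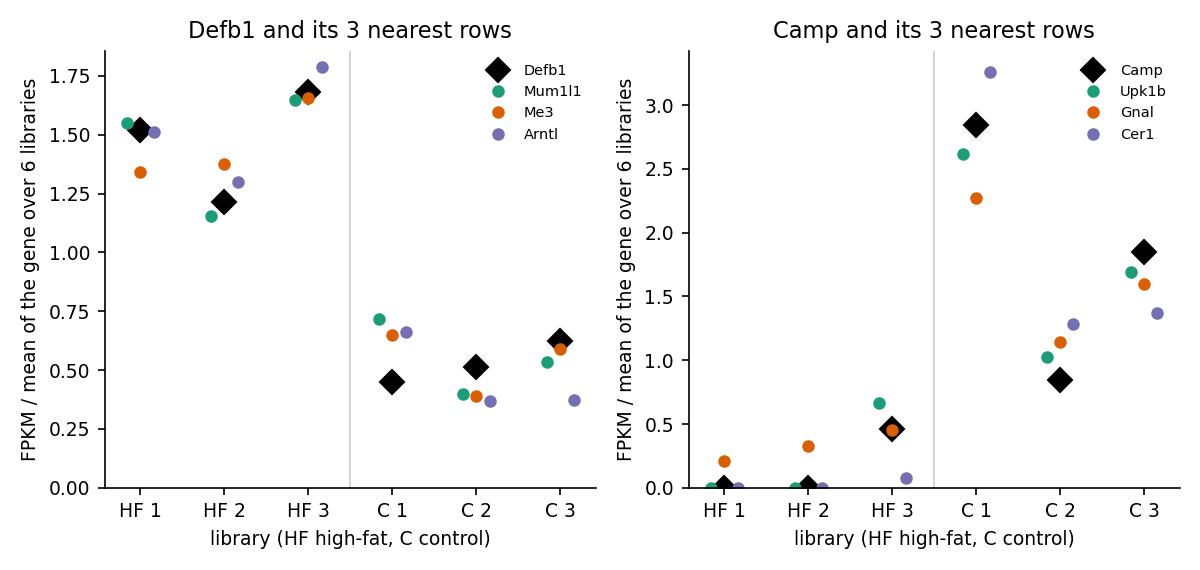
FPKM divided by the gene's mean over 6 libraries (vertical axes of different range) for Defb1 and Camp (black diamonds) and the 3 rows nearest to each (coloured points), by library, with HF for high-fat and C for control. Defb1 is lowest in C 1, at 0.448 of its mean, where its neighbours have their highest control value; Camp is highest in C 1, at 2.85 of its mean.

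Other genes of antimicrobial defence and of the cells that make it could not be set beside these values. From the list of 21 defensins, of which 20 had a known gene symbol, Defb1 was the 1 gene among the 54 rows. From the list of 18 neutrophil granule genes it was Camp. The lists of 16 other antimicrobial proteins, 22 receptors and regulators of defensins and cathelicidin, 15 duct and other epithelial genes, 12 leukocyte genes and 12 islet endocrine genes had 0 members among the rows. Levels of those genes were not analysed here. The labelled tissue was thus not checked against its hormone genes, and the part of epithelial cells in the Defb1 values and of neutrophils in the Camp values was not tested.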

How the data were processed

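The authors deposited 1 table of 54 genes with an FPKM value for each of 6 islet libraries, group means, a p-value, a log2 fold change and a score, per the file headers. The build GRCm38 and the tools StringTie 1.3.3, HISAT2 2.1.0 and Trimmomatic 0.36 are named in the submitters' processing notes, without roles. Not given in the sources used here are the test, the rule that picked the rows, the strand setting and the annotation release. The deposited log2 fold changes equalled the recomputed ratio of means, high-fat over control, in all 54 rows (tolerance 1e-06).

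The members and gene lists were chosen with earlier results of these data known. No test was run, since all rows have a low deposited p-value for the diet contrast. Values were summarised with pandas 2.3.3, and shared stretches were searched with blastn 2.17.0 (ungapped, identical letters, both strands, all GENCODE M21 transcripts). Genes named beside the members are the 3 nearest rows by profile, the neighbours in level and any row in a gene list. Alternatives were pseudocounts of 0.1 and 1 FPKM, scaling by library median, upper quartile or sum, group medians, a minimum mean of 1 FPKM and leaving out each library. A ratio counts as moved when it differs by more than the pooled within-diet SD of log2(FPKM + 0.1), also where the ratio itself has no pseudocount, and a count when it is beyond 1.5 times.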

Additional observations from a re-analysis of the deposited data

How the results depend on the processing

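The log2 ratio of Defb1, 1.48, moved by more than its pooled within-diet SD of log2(FPKM + 0.1), 0.24, under scaling by the library median (0.68), upper quartile (0.82) and sum (0.54), and kept its sign and stayed within that SD under the other 9 alternatives. The log2 ratio of Camp, -3.59 with a pooled SD of 0.50, moved with pseudocounts of 1 (-0.28) and 0.1 (-1.47), with scaling by median (-4.32), upper quartile (-4.21) and sum (-4.55), and without high-fat replicate 1 or 2 (-3.01 each), within a range of -3.94 to -3.01 over the libraries left out. No value could be had for Camp from the ratio of medians or without high-fat replicate 3, since the high-fat level is then 0, nor under the minimum of 1 FPKM, which Camp does not reach. The pseudocount shifts come from its low level by construction; the cause of the scaling shifts was not tested. The count of 51 rows without overlap was 24 of the 26 rows of at least 1 FPKM, fewer because fewer rows entered, and 30 after scaling by the sum. Of the 3 nearest rows, 1 to 3 were shared for Defb1 and 1 to 3 for Camp with 1 library left out, and the lowest count came without high-fat replicate 3 or control replicate 1 for Defb1 and without control replicate 1 for Camp. With the zeros taken as listed, the difference in Camp per 100 FPKM of Defb1 moved by less than its SD in all 6 repeats without 1 library. No paired analysis was possible because the labels give no replicate numbers shared between diets. Unknown depth limits the reading of Camp, at less than 1 fragment in 1000000 in every library.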

Other observations

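The annotated start of Camp differs between catalogues on GRCm38: GENCODE M21 begins the transcript at position 109849617 of chromosome 9 and RefSeq at 109849456, which is 161 bases further downstream on the minus strand. The deposited rows carry Ensembl gene identifiers, which GENCODE also uses. The transcript start behind the deposited values is not stated in the labels. The choice changes the length by which Camp is scaled and which fragments are assigned to it; its effect on the values was not tested.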
